A study of Homo sapiens with 4 samples.

Results

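The last 3 kb of protein-coding genes were examined in a map of ADAR-bound RNA from K562, a line of human leukaemia cells that carry erythroid features. The data came from enhanced crosslinking and immunoprecipitation (eCLIP), in which ultraviolet light fixes a protein to the RNA it touches and the RNA under the protein is sequenced. The study made 2 immunoprecipitation (IP) libraries with an ADAR1 antibody and 2 input libraries without one, numbered as replicates 1 and 2. All 4 libraries came from untreated K562 cells crosslinked at 254 nm and 400 mJ/cm2, and RNA was recovered from a 75 kDa stretch of the gel above ADAR. Whether the replicates were grown separately is not stated, and their spread may be technical.

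The authors deposited the read clusters of each replicate and a shorter list that combines both, called here the reproducible list. A cluster was counted when its midpoint lay in exactly 1 RefSeq gene span of GRCh38, when that gene was protein-coding, longer than 10 kb and on the cluster's strand, and when the midpoint was within 3 kb of the gene's 3′ end. By this rule 26066 of 534161 clusters of replicate 1, 5634 of 155848 clusters of replicate 2 and 33 of 1717 peaks of the reproducible list lay in the last 3 kb. They came from 5800 genes in replicate 1, 2578 genes in replicate 2 and 20 genes in the reproducible list, and 2515 genes had a cluster there in both replicates. The interior of genes of the same class, over 3 kb from either end, held 359303 clusters in 9096 genes in replicate 1, 108113 in 7252 genes in replicate 2 and 1203 reproducible peaks in 393 genes. Exons and untranslated regions were not assigned, so a position here is a distance from the end of a gene span and is not shown to lie in a particular exon.

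ADAR converts adenosine to inosine in double-stranded RNA. The 3′ end of a gene usually holds the last exon with most of the 3′ untranslated region, which stays in the mature messenger RNA, while most of a long gene's interior is intron and is present only until splicing. In human transcripts, many edited adenosines lie in pairs of inverted Alu repeats, which fold into long hairpins and occur both in introns and in 3′ untranslated regions.

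Each cluster carries the authors' log2 fold of IP over input and their −log10 p for it. A cluster was called enriched when both values were at least 3. Over all clusters 1.39% were enriched in replicate 1 and 12.8% in replicate 2. Within genes of the class the shares were 1.28% in replicate 1 and 13.4% in replicate 2, and these are the background for the counts below. Each fold could be read as a ratio of whole reads, on the log2 scale, plus a constant for its replicate. With the commonest fold taken as 3 IP reads over 1 input read, the IP library was 3.33 times as deep as its input for replicate 1 and 0.553 times as deep for replicate 2. At 1 input read an enriched call therefore needed 37 IP reads in replicate 1 and 9 IP reads in replicate 2.

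A sequence could be read beside 1 of the reproducible sites, in ZNF688, a zinc finger gene. Part of the replicate 2 cluster over that site lay in the RefSeq promoter table (GRCh38.p14). The 2 reproducible peaks, at 30571584 to 30571649, did not reach into it, so the printed bases lie outside both peaks. The sequence is shown because it places a cluster of the last 3 kb beside an annotated transcript start. ZNF688 spans only 10226 bases, and the table gives a start at position 30571714 on the minus strand, inside the gene. The 30 bases at chr16:30571665-30571694, minus strand, are printed 5′ to 3′, with capitals marking the 20 bases inside the replicate 2 cluster.
ZNF688: ggccgggagcGGGGAGGCGGCGGCTCCAGG
That cluster covered positions 30571593 to 30571684 with a log2 fold of 5.50, from 50 IP reads over 2 input reads. The highest replicate 1 cluster of the site, at 30571584 to 30571617, had log2 4.77 from 91 IP reads over 1 input read. Its 2 reproducible peaks were the only reproducible ones of the last 3 kb within 1 kb of an annotated transcript start on their strand. Only 45.5% of the 22 clusters in the ZNF688 span lay on its annotated strand.

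The first comparison set the last 3 kb against the interior of the same class of genes. In replicate 1, 352 of 26066 clusters of the last 3 kb were enriched, or 1.35% (exact 95% interval 1.214 to 1.498), against 1.22% (1.19 to 1.26) of interior clusters. In replicate 2, 369 of 5634 were enriched, or 6.55% (5.92 to 7.23), against 14.1% (13.9 to 14.3) of interior clusters. The last 3 kb thus lay close to the background in replicate 1 and below it in replicate 2. The first 3 kb of these genes, where transcripts start, had 1.86% enriched in replicate 1 and 8.38% in replicate 2. The difference was 0.13 percentage points in replicate 1 and −7.57 percentage points in replicate 2, with a mean of −3.72.

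The folds went the same way as the calls. The median log2 fold in the last 3 kb was 0.27 in replicate 1, against 0.00 in the interior, and 0.85 in replicate 2, against 1.91 in the interior. The replicates therefore went opposite ways in both measures. For the share, the replicate 1 difference was only 0.13 percentage points, and the intervals of its zones overlapped. An exact sign-flip permutation test over the 2 replicates gave two-sided p = 1 for the share and for the median fold, and 2 replicates cannot give less than 0.5. The intervals cover counting error only and treat clusters as independent, which neighbouring clusters of a gene are not.

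The same comparison was made inside genes with at least 3 clusters in each zone. In replicate 1 the last 3 kb had the higher median fold in 2273 of 3980 genes (57.1%), with a median difference of 0.16 on the log2 scale. In replicate 2 it had the higher median fold in 197 of 675 genes (29.2%), with a median difference of −0.69. Of the 650 genes with enough clusters in both replicates, 136 were higher at the end in both and 205 were lower in both. Another 243 were higher in replicate 1 and lower in replicate 2, and 49 went the other way.

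Distance from the end sorted the clusters in replicate 2 and hardly did so in replicate 1. In the final 500 bases 29 of 1060 clusters of replicate 2 were enriched, or 2.74% (exact 95% interval 1.84 to 3.91), and 30 of 972 between 500 and 1000 bases, or 3.09%. The share was 7.68% between 1000 and 1500 bases and 8.96% (7.16 to 11.04) between 2500 and 3000 bases. Its median log2 fold was 0.47 in the final 500 bases and 1.44 between 2500 and 3000 bases. In replicate 1 the final 500 bases had the highest share of the window, with 110 of 6148 clusters enriched, or 1.79% (1.47 to 2.15), against 1.18% (0.85 to 1.58) between 2500 and 3000 bases.

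The 3 kb limit did not mark a step. Just inside it, between 2500 and 3000 bases, 8.96% of replicate 2 clusters and 1.18% of replicate 1 clusters were enriched. Just outside it, between 3000 and 3500 bases, the shares were 10.1% in replicate 2 and 1.07% in replicate 1. Between 5500 and 6000 bases replicate 2 reached 14.3%, close to its interior share.

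**Figure D1:**
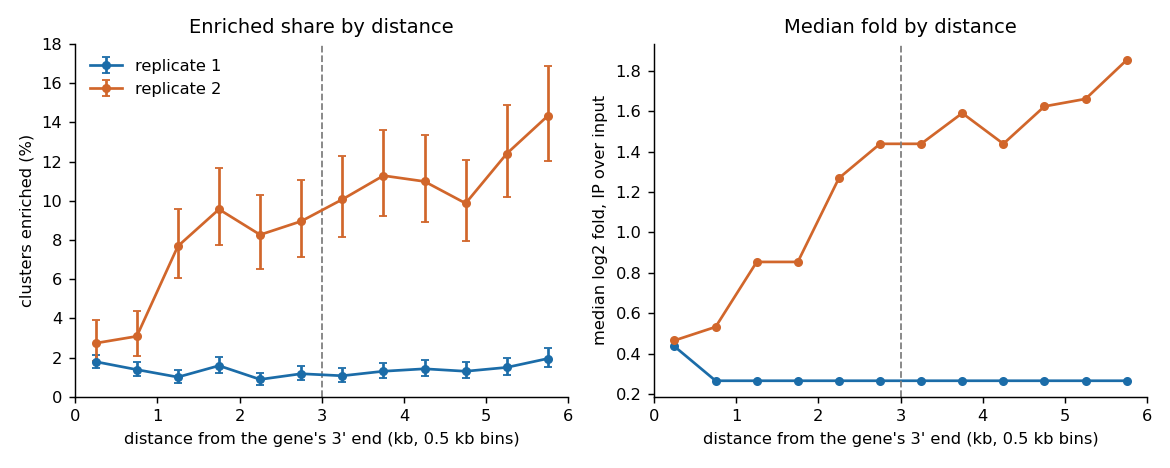
Share of clusters enriched (left, %, with exact 95% intervals) and median log2 fold of IP over input (right) in 500-base bins by distance from the gene's 3′ end (kb), with the 3 kb limit dashed. Replicate 2 has 2.74% in the final 500 bases and 14.3% between 5500 and 6000 bases, while replicate 1 stays at or under 1.95%; many replicate 1 bins share a median because folds at few reads take few values.

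The read ratios behind the folds differed between the zones. The fold, written as a ratio of whole reads in lowest terms, had a denominator of at least 5 for 25.5% of replicate 1 clusters in the last 3 kb, against 16.4% in the interior. In replicate 2 these shares were 42.8% in the last 3 kb and 22.8% in the interior. The enriched share fell with the denominator in both zones, so the zones were also set side by side at like denominators. A denominator in lowest terms can be smaller than the number of input reads, so like denominators are not like input depths. The part of depth in the pooled difference was not tested further.

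At a denominator of 1, 12.7% of replicate 2 clusters in the last 3 kb were enriched, against 18.2% in the interior. At 5 to 9 the shares were 3.08% in the last 3 kb and 7.51% in the interior. At 20 to 200, 0 of 485 clusters of the last 3 kb were enriched, which allows a share of up to 0.619% (3 over 485), against 1.56% in the interior. The last 3 kb was thus lower in every denominator class of replicate 2. In replicate 1 the order was the other way up to a denominator of 19, with 1.85% in the last 3 kb against 1.63% in the interior at a denominator of 1, and 0.822% against 0.398% at 5 to 9. At 20 to 200, 0 of 778 replicate 1 clusters in the last 3 kb were enriched, which allows a share of up to 0.386%, against 0.108% in the interior.

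**Figure D2:**
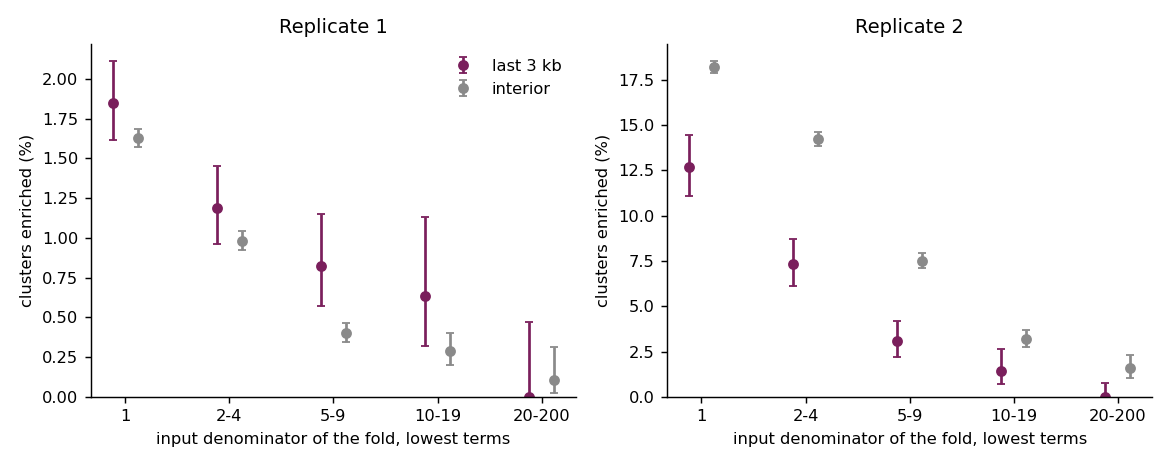
Share of clusters enriched (%) in the last 3 kb and the interior by the input denominator of the fold in lowest terms, with exact 95% intervals, for each replicate (the vertical scales differ). The last 3 kb sits below the interior in all 5 classes of replicate 2 and above it in 4 of 5 classes of replicate 1.

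The replicates were then compared over the same places. Clusters were paired by mutual best overlap, of at least 1 base on the same strand, which gave 3544 pairs in the last 3 kb and 60244 in the interior whose folds were read as whole reads. In the last 3 kb the median log2 fold was 0.53 in replicate 2 and 0.47 in replicate 1, and the median difference within pairs was 0.17. In the interior it was 2.08 in replicate 2 and 0.53 in replicate 1, with a median difference of 1.59. The shift between replicates was therefore smaller at gene ends than inside genes, and no test over samples can be made with 1 value per replicate.

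That shift also varied along the window. Over all pairs, within 1 kb of the end the median difference was −0.17 over 1397 pairs, between 1 and 2 kb it was 0.27 over 1119 pairs, and between 2 and 3 kb it was 0.69 over 1032 pairs. With denominators of at least 5 in both replicates, it was −0.33 over 1199 pairs in the last 3 kb and 1.23 over 8446 pairs in the interior. Across the 3544 pairs Pearson's r of the folds was 0.53 and Spearman's rho was 0.50, given as a description, since pairs share genes and libraries.

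Enriched clusters of replicate 1 were met by replicate 2 at a smaller share at gene ends than inside genes. Of the 352, 118 (33.5%) were overlapped by any replicate 2 cluster and 57 (16.2%, exact 95% interval 12.5 to 20.5) by an enriched one. In the interior 72.0% of enriched clusters were overlapped by any replicate 2 cluster and 52.1% (50.6 to 53.6) by an enriched one. Of all replicate 1 clusters, enriched or not, 15.15% in the last 3 kb and 18.5% in the interior were overlapped by any replicate 2 cluster. From replicate 2, 55 of 369 enriched clusters (14.9%, 11.4 to 18.96) were overlapped by an enriched cluster of replicate 1, against 13.5% (13.0 to 14.1) in the interior. At the gene level, 193 genes had an enriched cluster in the last 3 kb in replicate 1, 216 in replicate 2 and 44 in both. Of the 2515 genes with a cluster there in both replicates, 139 had an enriched one in replicate 1 and 215 in replicate 2. The 44 were 1.75% of these 2515 genes. For the interior the same share was 17.1%, but interiors hold many more clusters per gene.

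The reproducible list held 33 peaks in the last 3 kb, which merged into 20 sites, 1 in each of 20 genes. They were 2.56% (exact 95% interval 1.77 to 3.57) of the 1290 reproducible peaks in genes of this class. The share of all clusters that lay there was 6.28% in replicate 1 and 4.64% in replicate 2, and of enriched clusters 6.65% in replicate 1 and 2.26% in replicate 2. Their median log2 fold was 4.47, with a range of 3.02 to 5.56, against 4.65 and 3.00 to 8.08 for interior peaks. All 1717 peaks of the reproducible list had a fold of at least 3, so these ranges start there. Of the 33, 26 overlapped an enriched cluster of replicate 1, 31 of replicate 2 and 24 of both. Most lay toward the inner edge of the window, with 26 peaks in 16 genes between 1.5 and 3 kb from the end and 7 peaks in 4 genes nearer to it. The inner stretch thus held 78.8% of the reproducible peaks. It held 44.0% of all last-3-kb clusters and 39.8% of the enriched ones in replicate 1, and 47.1% of all and 64.2% of the enriched ones in replicate 2.

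The sites are given by what their genes encode, a grouping made after they were seen and not tested. SLC3A2, the heavy chain of amino acid transporters at the cell surface, had 3 peaks between positions 62886676 and 62886745 of chromosome 11, the highest at log2 5.56. The cluster over that peak had log2 5.53 in replicate 1, from 154 IP reads over 1 input read, and log2 5.53 in replicate 2, from 51 IP reads over 2 input reads. In all, SLC3A2 had 4 of 18 clusters enriched in replicate 1 and 9 of 13 in replicate 2. That peak lay 2123 bases from the end, and the lower of its replicate folds was the highest of any gene in the window.

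GATC, a subunit of the mitochondrial amidotransferase that completes glutaminyl-tRNA, had 2 peaks on chromosome 12 between 120461253 and 120461378. Its highest cluster had log2 4.02 in replicate 1 and 5.31 in replicate 2. TIMM50, of the inner membrane import machinery, had 2 peaks at log2 3.31 and 3.58 where the overlapping cluster had 2.12 in replicate 1 and up to 5.10 in replicate 2. Those peaks thus passed log2 3 in replicate 2 only. SSBP1, the single-stranded DNA binding protein of mitochondria, had 2 peaks at 3.02 and 3.21. The cluster over the lower peak had log2 2.44 in replicate 1 and 3.97 in replicate 2, so that peak passed log2 3 in replicate 2 only. Over the higher peak the values were 3.84 in replicate 1 and 3.52 in replicate 2. YME1L1, a protease of the inner membrane, had 1 peak at 4.85, with 4.32 in replicate 1 and 5.38 in replicate 2.

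Other genes encode nuclear proteins. CLK1, a kinase that phosphorylates SR splicing factors, had the most reproducible peaks of the window, 4 between 200855784 and 200855895 on chromosome 2. They had log2 3.52 to 4.07, and the highest cluster over them had log2 4.24 in replicate 1 and 3.76 in replicate 2. NOM1, a nucleolar protein, had 1 peak at 5.11 and the widest gap between replicates among the 20 genes apart from TIMM50, with 3.77 in replicate 1 and 6.41 in replicate 2. MORC3, a nuclear ATPase, had 1 peak at 4.93, with 4.40 in replicate 1 and 5.47 in replicate 2. SLTM, related to the scaffold attachment factors, had 1 at 4.48, with 3.82 in replicate 1 and 5.18 in replicate 2. CDYL, a chromodomain corepressor, had 1 at 4.47, with 3.33 in replicate 1 and 5.61 in replicate 2. In all of these except CLK1 the replicate 2 cluster was the higher.

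QPCTL, a glutaminyl cyclase of the Golgi, had 2 peaks at log2 4.76, only 404 and 370 bases from the end. Its overlapping clusters reached 5.51 in replicate 1, from 152 IP reads over 1 input read, and 3.997 in replicate 2, from 53 IP reads over 6 input reads. NBPF4, of the neuroblastoma breakpoint family, had 3 peaks at 4.93 to 5.04, with 4.74 in replicate 1 and up to 6.14 in replicate 2. NBPF4 has near-identical copies, among them NBPF6, whose last 3 kb reached 3.51 in replicate 1 and 4.61 in replicate 2, so how reads were shared between them is uncertain. CRYZL1, a quinone oxidoreductase-like gene, had 2 peaks up to 5.11, above the 4.71 of replicate 1 and the 4.54 of replicate 2 at the same place. C6orf62 had 1 peak at 4.07, with 2.87 in replicate 1 and 5.30 in replicate 2.

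The remaining genes each had 1 reproducible peak. VHL, the substrate receptor of the ligase that degrades hypoxia-inducible factors, had its peak at 3.11, with 3.20 in replicate 1 and 2.92 in replicate 2. CTC1, of a telomere-capping complex, had 3.03, with 3.38 in replicate 1 and 2.69 in replicate 2. At these peaks log2 3 was passed in replicate 1 only. UBAC1 had its peak at 3.69, with 2.66 in replicate 1 and 5.18 in replicate 2. ZNF587B, a zinc finger gene, had 3.88, with 2.99 in replicate 1 and 4.92 in replicate 2. CRCP, a subunit of RNA polymerase III, had 3.13, with 2.38 in replicate 1 and 3.30 in replicate 2. At these peaks log2 3 was passed in replicate 2 only. ZNF587B has a close relative, ZNF587, which also had enriched clusters in its last 3 kb in both replicates. Strand was taken from the clusters for VHL, CTC1, CRCP, NOM1 and YME1L1, and from the annotation for the other genes with reproducible sites.

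**Figure D3:**
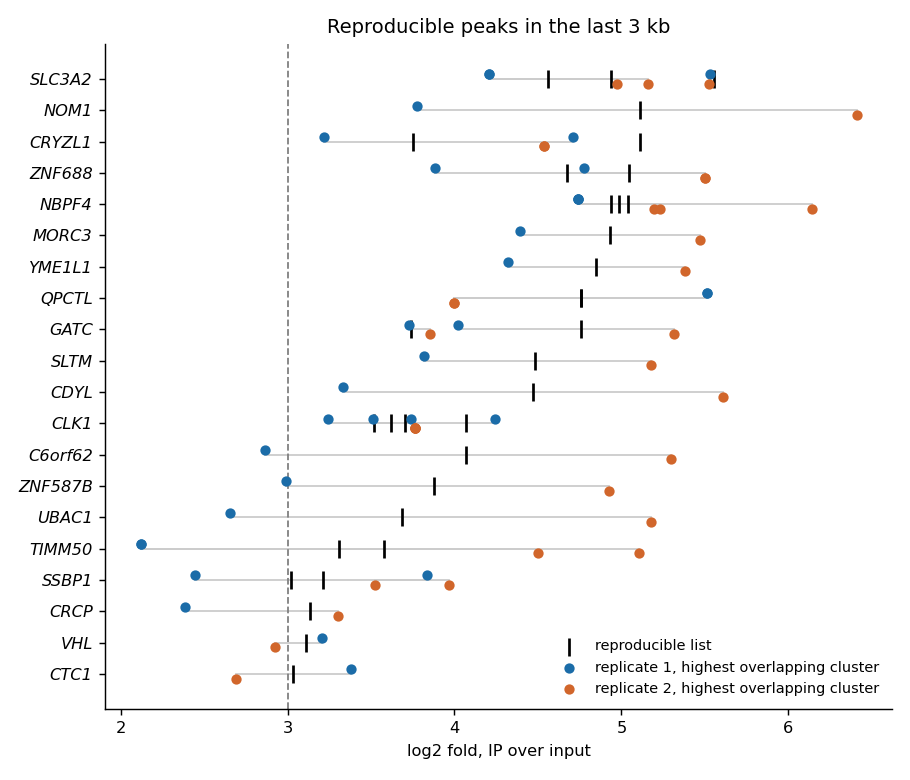
Log2 fold of IP over input for the 33 reproducible peaks in the last 3 kb (black ticks, by gene) and the highest overlapping cluster of each replicate (points, joined per peak), with the limit of 3 dashed. Most genes have the replicate 2 point at the right, while QPCTL, VHL and CTC1 have the replicate 1 point there, as do single peaks of CLK1, CRYZL1, SLC3A2 and SSBP1.

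Of the 6 genes with the most enriched clusters in replicate 1, EGFL7, WEE1, GTF2A1 and HIPK3 had none in replicate 2, while HELLS and VHL had some in both. Of all 193 genes enriched at the end in replicate 1, 139 had a cluster there in replicate 2 and 44 an enriched one. A missing call in replicate 2 is thus usual and does not set these 4 genes apart. EGFL7, which encodes a secreted vascular factor and hosts a microRNA, had 15 of 16 clusters enriched in replicate 1, at log2 3.25 to 4.77 between 136670027 and 136671909 on chromosome 9. In replicate 2 its 8 clusters had log2 −0.42 to 1.97 and none was enriched. The top replicate 1 cluster rested on 364 IP reads over 4 input reads, so its fold did not hang on a lone input read. EGFL7 also had 34 enriched clusters in its interior in replicate 1 and 0 there in replicate 2.

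WEE1, the kinase that holds cells before mitosis, had 8 of 8 clusters enriched in replicate 1, at 3.35 to 5.52, and 0 of 3 in replicate 2, at 0.27 to 2.08. Its top cluster had 914 IP reads over 6 input reads, and its strand was taken from the clusters. GTF2A1, a subunit of the general transcription factor TFIIA, had 8 of 14 enriched in replicate 1, up to 5.84, and 0 of 2 in replicate 2, up to 1.27. HIPK3, a nuclear protein kinase, had 6 of 14 enriched in replicate 1, up to 5.02, and no cluster in its last 3 kb in replicate 2. HELLS, a chromatin remodeller needed for DNA methylation, was called in both, with 8 of 11 in replicate 1 and 2 of 4 in replicate 2. Its highest folds were 5.48 in replicate 1 and 4.27 in replicate 2, 341 and 1109 bases from the end. The enriched clusters of replicate 1 reached to 1085 bases from the end and those of replicate 2 began at 1065 bases, so the sets met at their edge.

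The leaders of replicate 2 after SLC3A2 were other genes. Of all 216 genes enriched at the end in replicate 2, 215 had a cluster there in replicate 1 and 44 an enriched one. TOMM40, the channel of the outer mitochondrial membrane, had 6 of 7 clusters enriched in replicate 2, at 3.06 to 5.94, and 0 of 13 in replicate 1, where the highest was 3.02. TMEM183A had 6 of 6 in replicate 2, at 3.33 to 4.44, and 0 of 6 in replicate 1, up to 2.20. MDM4, an inhibitor of p53, had 5 of 10 in replicate 2, up to 4.76, and 0 of 18 in replicate 1, up to 1.83. NUP153, of the nuclear pore basket, had 5 of 9 in replicate 2, up to 5.10, and 3 of 11 in replicate 1, up to 3.84. The NUP153 clusters lay 1829 to 2709 bases from the end in replicate 2 and 366 to 592 bases in replicate 1, so they were not the same sites.

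Genes were also ranked by the lower of their highest enriched folds in the replicates. After SLC3A2 came ZNF610, a zinc finger gene without a reproducible peak here, with 5.16 in replicate 1 and 5.55 in replicate 2 between 52331902 and 52331931 on chromosome 19. Its strand was taken from only 5 clusters, all on the minus strand, and was not annotated here, so the site is not shown to lie at the 3′ end of its messenger RNA. These 5 clusters are the same ones counted here, 3 in replicate 1 and 2 in replicate 2. Its place in the window, in this ranking and among the 44 genes enriched in both replicates thus rests on its own clusters. ZNF688, NBPF4, CRYZL1 and YME1L1, described above, followed. The ranking does not ask for the same place in both replicates. For YME1L1 the highest cluster lay 2977 bases from the end in replicate 1, at log2 4.48, and 2671 bases in replicate 2. At its reproducible site replicate 1 had 4.32. Genes with many clusters were not always enriched. GATD1 had the most clusters in the window summed over the replicates, with 6 of 22 enriched in replicate 1 and 4 of 15 in replicate 2. VHL was next in that sum and had the most in replicate 1, with 6 of 24 in replicate 1 and 1 of 12 in replicate 2. DDX17, an RNA helicase, had 0 of 19 enriched in replicate 1, with a median log2 fold of −1.20, and 0 of 9 in replicate 2, with −1.41.

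**Figure D4:**
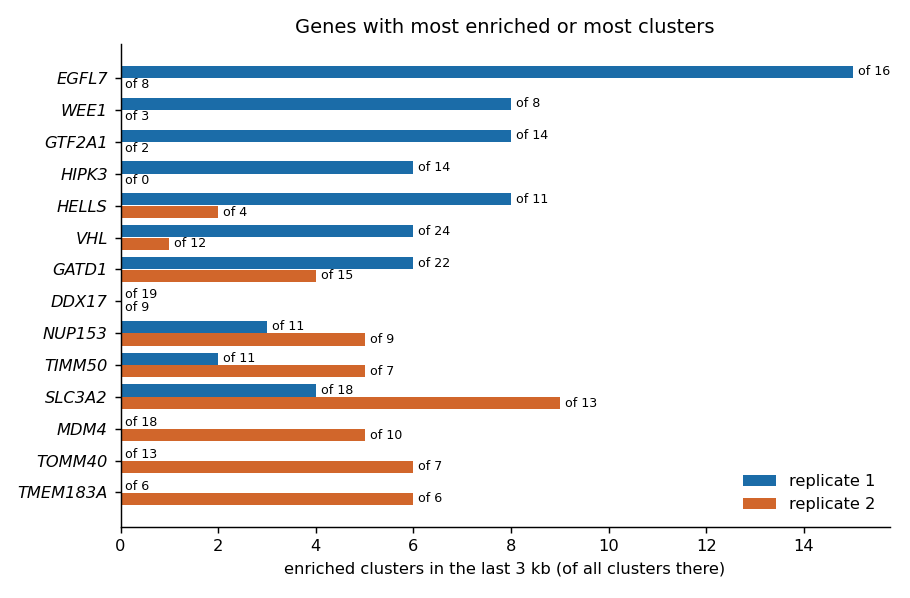
Number of enriched clusters in the last 3 kb for the genes with the most enriched or the most clusters, by replicate, with all clusters of that gene in the window printed at each bar. EGFL7, WEE1, GTF2A1 and HIPK3 have enriched clusters in replicate 1 only, while TOMM40, TMEM183A and MDM4 have them in replicate 2 only.

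Gene lists were read against all genes of the class, where 1.35% of last-3-kb clusters were enriched in replicate 1 and 6.55% in replicate 2. Transcripts reported to be edited in Alu repeats of their 3′ untranslated region had 9 of 154 clusters enriched in replicate 1 (5.84%) and 18 of 88 in replicate 2 (20.5%). These came from 4 of 18 genes with a cluster there in replicate 1 and 10 of 16 in replicate 2, against 3.33% of all such genes in replicate 1 and 8.38% in replicate 2. The listed genes held more clusters each, so each had more chances of a call. In replicate 1 they held 154 clusters in 18 genes, against 26066 in 5800 over all genes. In replicate 2 the numbers were 88 in 16, against 5634 in 2578. VHL alone held 6 of the 9 calls in replicate 1, and without it 3 of 130 clusters were enriched (2.31%). MDM4 held 5 of the 18 calls in replicate 2, and without it 13 of 78 were enriched (16.7%). The list's median log2 fold at the end was 0.97 in replicate 1 and 1.97 in replicate 2, against 0.27 and 0.85 over all genes. In the interior of the same genes 1.36% of clusters were enriched in replicate 1 and 20.5% in replicate 2, against 1.22% and 14.1% over all genes.

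Among them MDM4 had the highest fold in replicate 2 and no call in replicate 1, as given above. XIAP, an inhibitor of apoptosis, had 1 of 10 enriched in replicate 1, at 4.05, and 2 of 9 in replicate 2, up to 4.25. PSMB2, a proteasome subunit, had 1 of 16 in replicate 1, at 4.05, and 3 of 9 in replicate 2, up to 3.53. CCNYL1, a cyclin Y relative, had 0 of 4 in replicate 1, up to 1.97, and 2 of 4 in replicate 2, up to 3.85. VHL, XIAP and PSMB2 were the members called in both replicates. The highest XIAP cluster lay 177 bases from the end in replicate 1 and 1383 bases in replicate 2, so these were different sites. The highest enriched clusters of the other genes also differed in place. For PSMB2 they lay 2985 bases from the end in replicate 1 and 2696 bases in replicate 2. For VHL they lay 522 bases in replicate 1 and 2514 bases in replicate 2. Of the 22 listed genes that could be scored, 1, VHL, had a reproducible peak at its end, against 20 of all 12827 such genes. A single gene does not set the list apart.

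Abundant messenger RNAs had few calls. Of 23 such genes all had clusters in the window in replicate 1, with 0 of 198 enriched, which allows a share of up to 1.52% and so does not set them apart from the 1.35% over all genes. In replicate 2, 1 of 82 was enriched, or 1.22%, against 6.55% over all genes. It lay in XRCC6, a DNA end-binding subunit, at log2 4.85. Their median log2 fold at the end was 0.20 in replicate 1, near the 0.27 over all genes, and −0.96 in replicate 2, against 0.85. In the interior of these genes 12.3% of replicate 2 clusters were enriched, near the 14.1% over all genes. Genes for polyadenylation factors had 0 of 77 enriched at the end in replicate 1 and 0 of 16 in replicate 2, which allows shares of up to 3.90% and 18.8%. Their interiors had 2.14% enriched in replicate 1 and 20.1% in replicate 2.

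The other lists had few clusters and few calls. Recoding targets of editing had 0 of 54 enriched in replicate 1, which allows a share of up to 5.56%. They had 1 of 26 in replicate 2 (3.85%), in SRP9, a signal recognition particle protein, at 3.27. Double-stranded RNA binding proteins had 1 of 49 in replicate 1 (2.04%), in DGCR8, the microRNA processing partner of DROSHA, at 3.99. They had 1 of 21 in replicate 2 (4.76%), in EIF2AK2, the kinase PKR, at 3.18. Counts this small do not set these 2 lists apart from all genes, at 1.35% in replicate 1 and 6.55% in replicate 2. Erythroid genes had 1 of 83 enriched in replicate 1 (1.20%) and 6 of 36 in replicate 2 (16.7%), in GYPB and BLVRB. GYPB, a glycophorin, had 1 of 6 in replicate 1, at 3.69, and 4 of 4 in replicate 2, up to 5.02, and shares near-identical sequence with other glycophorin genes. Without GYPB the erythroid list had 2 of 32 enriched in replicate 2 (6.25%), near the 6.55% over all genes. BLVRB, biliverdin reductase, had 0 of 4 in replicate 1 and 2 of 7 in replicate 2, up to 3.18. As a check of the cell type, 18 of 19 erythroid genes that could be scored had a cluster anywhere in the gene. Lists not chosen by cell type stood as high, with 17 of 18 polyadenylation factor genes and 23 of 23 abundant ones. The erythroid count therefore does not mark the cell type. Of hepatocyte genes, 2 of 7 had a cluster anywhere and none had a cluster in the last 3 kb.

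**Figure D5:**
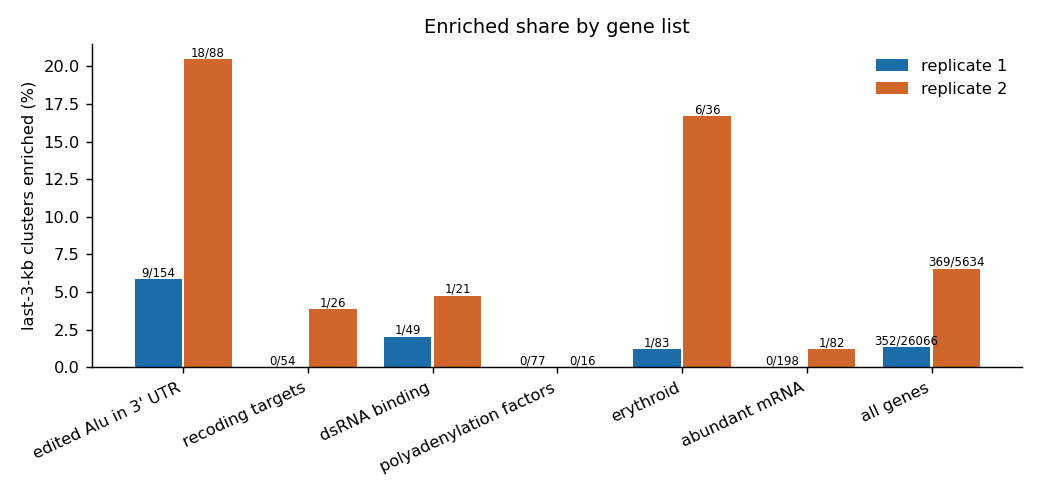
Share of last-3-kb clusters that were enriched (%), by gene list and replicate, with enriched over all clusters printed at each bar; the rightmost bars are all genes of the class. Transcripts edited in Alu repeats stand at 5.84% in replicate 1 (2.31% without VHL) and 20.5% in replicate 2 (16.7% without MDM4), against 1.35% and 6.55% for all genes.

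In replicate 1 the order of the zones differed between gene length classes. In genes of 10 to 20 kb, 1.94% of last-3-kb clusters were enriched in replicate 1, against 1.87% of interior clusters. In genes over 100 kb the shares were 1.54% at the end and 0.962% in the interior. The end was lower in genes of 20 to 50 kb, with 0.948% against 1.56% in the interior. It was also lower in genes of 50 to 100 kb, with 1.22% against 1.37%. In replicate 2 the end was lower in all 4 length classes, with 8.67% against 12.6% in genes of 10 to 20 kb and 4.95% against 13.4% in genes over 100 kb. Of the 20 genes with a reproducible site at the end, 9 were shorter than 20 kb. Among all genes with a cluster there, 1392 of 5800 in replicate 1 and 678 of 2578 in replicate 2 were of 10 to 20 kb. Whether the 20 genes differ from these in length was not tested.

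The input reads behind the calls were few. Among enriched clusters of the last 3 kb whose reads could be recovered, 36.0% of 350 in replicate 1 and 27.9% of 369 in replicate 2 rested on 1 input read. For interior clusters these shares were 50.5% in replicate 1 and 31.3% in replicate 2. The median was 85.5 IP reads over 2 input reads in replicate 1 and 20.0 IP reads over 2 input reads in replicate 2. At least 5 input reads stood behind 19.4% of these calls in replicate 1 and 20.6% in replicate 2, against 6.82% and 14.0% in the interior.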

How the data were processed

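Per the submitters' processing notes, the authors used cutadapt 1.9 and STAR 2.4.0i. How peaks were called and combined is unstated in those notes. The deposited −log10 p values (limited to 400) and log2 fold values are the authors' IP over input, 1 value per cluster. Coordinates were read as GRCh38 and are given from 1. Gene strand came from the RefSeq promoter table for 11572 of 14347 genes over 10 kb and, for 1255, from at least 80% of at least 5 clusters, while 1520 had none. Of 6682 annotated genes with at least 5 clusters, 98.6% had at least 80% of them on the annotated strand.

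Whole reads were recovered from the folds (denominators up to 200, tolerance 1e-07), on whose steps 99.9% of replicate 1 and 99.7% of replicate 2 clusters fell. The reads of enriched clusters were set by matching the deposited p within 0.01, with an exact binomial test or, from 5 reads in both libraries, a Yates-corrected chi-square, which placed 98.4% in replicate 1 and 99.4% in replicate 2. Whether an input of 0 reads was set to 1 is unknown. The number of reads per library is unknown. Intervals are exact Clopper-Pearson at 95%. The share allowed by a count of 0 is instead 3 over the number of clusters, which is below the upper end of the exact interval. Both cover counting error only.

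The members, gene lists and named genes were chosen with earlier results of these data known, and lists were written from general knowledge and not checked. Named were genes with most reproducible peaks (up to 15), the 6 with most enriched clusters per replicate, the 6 highest in both, the 4 with most clusters, and up to 4 examples per list. CRCP, CTC1, UBAC1, ZNF587B, NBPF6 and ZNF587 were added after their values were seen. Scripts (Python 3.11.15, pandas 2.3.3, SciPy 1.17.1) were tested on simulated data.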

Additional observations from a re-analysis of the deposited data

How the results depend on the processing

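With replicate 1 alone the mean differences between the last 3 kb and the interior turned round. Leaving out each replicate gave −7.57 to 0.13 percentage points for the enriched share (mean −3.72), −1.05 to 0.26 for the median log2 fold (mean −0.40), 2.26% to 6.65% for the share of enriched peaks at the end (2.56% in the reproducible list) and 193 to 216 genes enriched at the end (44 in both replicates). Within replicates, the enriched share was lower at the end in replicate 2 under all 13 other settings run, and higher in replicate 1 under 12 of 13, the exception being −0.026 percentage points at log2 fold 4. The sign-flip test cannot pass a threshold with 2 replicates, so it says nothing about stability. The cause of the opposite directions was not tested.

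Counts moved with the call and the window. At log2 fold 2 there were 780 enriched clusters in replicate 1 and 81 genes enriched in both. At log2 fold 4 there were 97 in replicate 1, 184 in replicate 2 and 16 genes, and at −log10 p 5 there were 228, 245 and 29. The last 1 kb held 172 and 59 enriched clusters, 9 genes and 0.543% of reproducible peaks. The last 5 kb held 722 in replicate 2, 87 genes and 4.65%. In genes over 30 kb there were 191 and 167 enriched clusters, 18 genes and 1.13%. Other settings kept counts within 1.5 times. Settings on gene strand, on transcript starts and on lists without their leading gene were chosen after seeing the data. No paired analysis was possible because a deposited fold is itself a ratio of same-numbered libraries, which leaves 1 value per replicate. Calls at 1 input read are limited by depth.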

Other observations

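Clusters just past the annotated end of these genes, in no gene span, were read as values outside the comparisons above. Up to 3 kb past an end on the same strand, replicate 1 had 21 of 853 clusters enriched, or 2.46% (exact 95% interval 1.53 to 3.74), and replicate 2 had 50 of 392, or 12.8% (9.62 to 16.5). In replicate 2 the first 500 bases past the end had 10 of 84 enriched (11.9%) with a median log2 fold of 2.31, while the final 500 bases before it had 2.74% enriched and a median of 0.47. In replicate 1 the first 500 bases past the end had 7 of 166 enriched, or 4.22% (1.71 to 8.50), with a median of 0.27, while the final 500 bases before it had 1.79% enriched and a median of 0.44. The share was thus higher past the end in both replicates, and the median in replicate 2 only. In replicate 1 the intervals of the shares overlapped, at 1.71 to 8.50 past the end and 1.47 to 2.15 before it. Over all clusters 1.39% were enriched in replicate 1 and 12.8% in replicate 2. The replicate 2 share up to 3 kb past the end was thus near that of all its clusters. The reproducible list held 4 peaks up to 3 kb past an end. A denominator of at least 5 was found for 17.9% of replicate 2 clusters in the first 500 bases past the end and for 49.7% in the final 500 bases before it, and the part of depth in this difference was not tested.

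Enriched clusters of the last 3 kb met a neighbouring gene's promoter window on the same strand in 2 cases, both in replicate 1. One lay at the end of GRWD1 and entered the window of KCNJ14 (chromosome 19, 48455222 to 48455366, log2 3.51). The other lay at the end of LRCH4 inside the window of SAP25 (chromosome 7, 100574050 to 100574110, log2 3.19).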
